A study of Homo sapiens with 30 samples.

Results

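Chromatin contacts around NOTCH1 were compared between K562 cells titled as S2 mutant and K562 cells titled as S4 mutant, that is, between cells altered at opposite ends of a span that holds the NOTCH1 promoter. The comparison uses 12 of the 30 libraries of the series: 6 S2 mutant libraries and 6 S4 mutant libraries, with 2 libraries per mutant at each of 3 viewpoints (the NOTCH1 promoter, S2 and S4), chosen by their titles. No unmutated library enters it, so each value says how the mutants differ from each other and not which of them departed from the parent line. K562 is a human chronic myelogenous leukemia cell line, grown here without any treatment named in the labels. Both groups differ in the labels by the mutated site alone; the kind of mutation, the number of clones and whether the 2 libraries of a pair come from separate cultures are not stated, so p-values measure only the spread between these libraries.

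The assay is 4C-seq, which reads out every fragment that was ligated to 1 chosen viewpoint after cross-linking and digestion, so that a fragment end with more reads was joined to the viewpoint more often or was amplified more. CTCF and cohesin commonly hold the anchors of chromatin loops together, and a loop whose anchors lie on either side of a gene places that gene in an insulated domain. NOTCH1 encodes a transmembrane receptor that signals between neighbouring cells and is known for its role in blood cell development and leukemia. The cells were fixed in 2% formaldehyde for 10 min and cut with DpnII, and the ligated template was amplified in 16 cycles before a second PCR, per the labels.

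In hg19 the deposited reads place the promoter viewpoint in chr9:139440768-139445767, S2 in chr9:139383372-139388371 and S4 in chr9:139521246-139526245. S2 therefore lies 57.4 kb from the promoter viewpoint on the centromeric side, S4 lies 80.5 kb from it on the telomeric side, and the 2 anchors are 137.87 kb apart. In RefSeq GRCh38.p14, NOTCH1 is 51616 bases long on the minus strand, so its body runs from its promoter toward the centromere, the side on which S2 lies. Its protein-coding neighbours in that assembly are SEC16A, which encodes a protein of endoplasmic reticulum exit sites, on the centromeric side, and EGFL7, which encodes a secreted protein of blood vessels, on the telomeric side. No hg19 annotation was used, so bins are given by position and not by gene.

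The NOTCH1 promoter of RefSeq (GRCh38.p14, chr9:136545999-136546298, minus strand) is shown because it is the element the promoter viewpoint is named for and because its bases say which cutting sites it offers the assay. It is printed in lower case from 250 bases before to 50 bases after the start of the gene, with no capitals since none of the 3 sites occurs in it.
NOTCH1 promoter: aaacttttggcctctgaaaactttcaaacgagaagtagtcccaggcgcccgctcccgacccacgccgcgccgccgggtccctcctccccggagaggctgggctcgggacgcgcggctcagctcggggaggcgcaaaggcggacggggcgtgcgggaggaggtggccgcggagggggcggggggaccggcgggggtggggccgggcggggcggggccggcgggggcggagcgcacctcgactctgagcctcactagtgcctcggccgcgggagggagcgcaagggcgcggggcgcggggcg
Its GC content is 77.0%. The palindromic sites searched, which read the same on both strands, were GATC for DpnII, CATG for NlaIII and GTAC for CviQI, the last 2 being the alternatives that the labels give for the second digestion. None was found in these 300 bases, whereas 41.7% of 35116 RefSeq promoters of that length hold GATC, 54.9% hold CATG and 29.8% hold GTAC. The window therefore lies within a single DpnII fragment in the reference, and contacts of the promoter are read at fragment ends beyond it.

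The S2 mutant libraries differed from the S4 mutant libraries in how many fragment ends carried their reads, and this bears on every result. After leaving out 5 kb on either side of the viewpoint, the reads within 500 kb (called near-cis reads) numbered 64583 and 68827 in the S2 mutant against 268826 and 265803 in the S4 mutant from the promoter. They numbered 668932 and 739507 in the S2 mutant against 2030329 and 2288603 in the S4 mutant from S2, and 459876 and 424277 in the S2 mutant against 2107771 and 2191846 in the S4 mutant from S4. The S2 mutant libraries had fewer near-cis reads at all 3 viewpoints, with no overlap. All chromosome 9 reads differed less from the promoter (5417204 and 5681351 in the S2 mutant against 6146699 and 5963494 in the S4 mutant) and from S4 (5706644 and 4994494 against 5867828 and 6171632) than from S2 (3500663 and 3874844 against 6635187 and 7470622). More of them lay within the 5 kb left out on either side of the viewpoint, 98.6% and 98.6% in the S2 mutant against 94.7% and 94.6% in the S4 mutant from the promoter. The same share was 76.6% and 76.7% in the S2 mutant against 65.01% and 65.04% in the S4 mutant from S2, and 90.9% and 90.4% against 59.5% and 59.9% from S4.

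A few ends held most of the reads in the S2 mutant. Of the 3008 ends near the promoter viewpoint, 90% of near-cis reads lay in 198 and 198 ends in the S2 mutant, against 559 and 558 in the S4 mutant. From S2 the numbers were 117 and 120 ends in the S2 mutant against 455 and 462 in the S4 mutant, and from S4 they were 180 and 179 in the S2 mutant against 524 and 524 in the S4 mutant. The S5 mutant and S4-S5 mutant libraries of the same series took between 304 and 605 ends, so the S2 mutant had the lowest numbers of the 4 mutants at each viewpoint.

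Reads at an end and the number of ends reached gave different pictures. Ends with 1 to 3 reads made up 42.5% to 56.2% of covered ends in the S2 mutant libraries, against 20.1% to 22.0% in the S4 mutant libraries. Most of these low ends of the S2 mutant, 83.9% to 92.8%, carried reads in at least 1 of the 2 S4 mutant libraries as well. Fewer, 51.5% to 71.8%, carried reads in the other S2 mutant replicate, which is 1 library. Each S4 mutant library covered 46.1% to 48.5% of all near-cis ends. The cause of this overlap was not tested. Ends that held at least 0.01% of near-cis reads in both replicates (called well covered, a measure added after seeing the data) numbered 364 in the S2 mutant and 924 in the S4 mutant from the promoter, 210 and 816 from S2, and 307 and 875 from S4. Of these, 284, 157 and 258 were shared, which is 78.0%, 74.8% and 84.0% of the S2 mutant's ends and 30.7%, 19.2% and 29.5% of the S4 mutant's. When every library of a viewpoint was thinned to the same number of near-cis reads, 33.7% to 33.8% of ends were covered in the S2 mutant against 40.2% to 40.7% in the S4 mutant from the promoter, 38.8% to 39.0% against 40.2% to 41.0% from S2, and 40.8% to 41.0% against 39.3% to 39.7% from S4. The S2 mutant thus reached fewer ends from the promoter and from S2 and slightly more from S4. The part of this spread in the contact differences below was not tested.

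**Figure D1:**
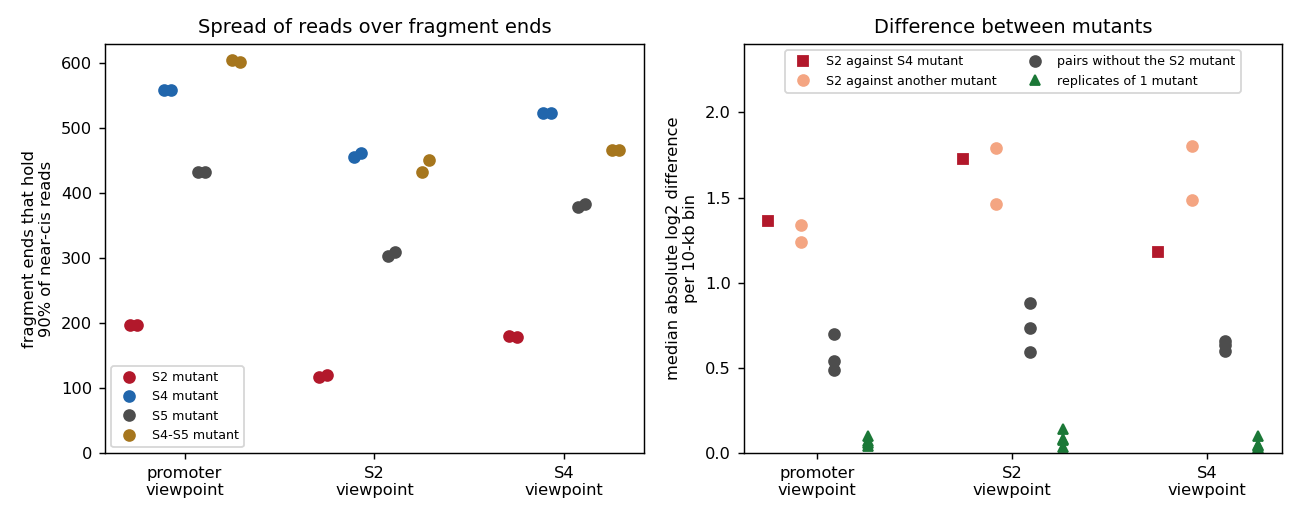
Left, number of fragment ends that hold 90% of near-cis reads, 1 point per library, for the 4 mutants at the 3 viewpoints: the S2 mutant points lie between 117 and 198 and all other points between 304 and 605. Right, median absolute log2 difference per 10-kb bin between mutants and between replicates: every pair with the S2 mutant lies above every pair without it at the same viewpoint.

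The contact between the anchors, S2 with S4, was read from both ends and did not give the same answer from each. Read from S4, the 20 kb around S2 held 6.53% and 6.79% of near-cis reads in the S2 mutant against 10.4% and 10.6% in the S4 mutant. All S2 mutant values were the lower, with means of 6.66 ± 0.18% and 10.5 ± 0.12% (SD, n = 2 each) and a log2 ratio of -0.66. Read from S2, the 20 kb around S4 held 9.59% and 10.0% in the S2 mutant against 9.78% and 10.0% in the S4 mutant. These overlapped, with means of 9.79 ± 0.29% and 9.89 ± 0.16% (SD, n = 2 each) and a log2 ratio of -0.014.

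The contact of the promoter with S4 also differed by the end it was read from. From the promoter, the window at S4 held 3.92% and 4.16% of reads in the S2 mutant against 5.00% and 5.10% in the S4 mutant, a log2 ratio of -0.32. From S4, the window at the promoter held 4.62% and 4.92% in the S2 mutant against 3.05% and 3.05% in the S4 mutant, a log2 ratio of 0.65. The groups did not overlap in either reading, and the directions were opposite. This opposition was lost under some alternatives. With windows of 20 kb either side the log2 ratios were 0.24 from the promoter and 0.10 from S4. Counting each end with a read once gave 0.20 and 0.12.

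For the promoter with S2, the window at S2 read from the promoter held 5.67% and 5.74% in the S2 mutant against 5.49% and 5.46% in the S4 mutant, a log2 ratio of 0.06. The window at the promoter read from S2 held 3.25% and 3.04% in the S2 mutant against 4.17% and 4.10% in the S4 mutant, a log2 ratio of -0.39. Here too the groups were separate and the directions opposite, and here too the opposition was lost under some alternatives. With windows of 5 kb either side the log2 ratios were 0.45 from the promoter and 0.04 from S2. Counting each end with a read once gave 0.38 and 0.17. In an exact two-sided permutation test 2 libraries against 2 cannot give a p below 0.333, and 5 of the 6 windows gave that value, so none of them passes a threshold of 0.05.

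Single ends carried much of these windows in the S2 mutant. The 3 highest ends held 70.1% and 71.8% of the promoter window read from S4 in the S2 mutant, against 46.6% and 46.6% in the S4 mutant. In the window at S2 read from S4 the order was the other way, with 39.7% and 37.8% in the S2 mutant against 46.5% and 46.9% in the S4 mutant. When each well-covered end was counted once in place of its reads, the log2 ratio of the S2 window read from S4 was 0.69, that of the S4 window read from S2 was 0.89, and that of the promoter window read from S4 kept its direction. The direction of the contact between the anchors therefore depended on whether reads or ends were counted. It also turned by reads when those of an end were capped at percentile 95 of ends with reads (0.16 from S4 and 0.48 from S2). The S4 window read from S2 turned too with a 20-kb mask (0.067) and with windows of 5 or 20 kb either side (0.25 and 0.27). With those 2 window sizes the S2 window read from S4 stayed lower (-0.96 and -0.51).

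**Figure D2:**
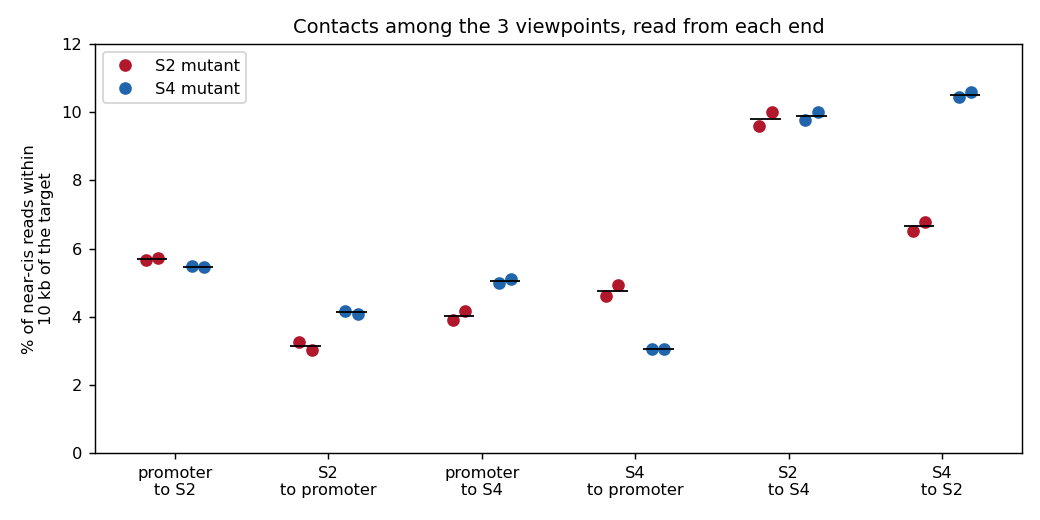
Percent of near-cis reads within 10 kb of each target, for each viewpoint and target, with 1 point per library and a bar at the mean of 2 libraries (S2 mutant left, S4 mutant right). The reading from S4 to S2 lies at 6.53 and 6.79% in the S2 mutant against 10.4 and 10.6% in the S4 mutant, while the reverse reading from S2 to S4 overlaps.

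Divided into the 6 regions that S2, the promoter and S4 set within 500 kb, the near-cis reads were divided differently in the 2 mutants. From the promoter, the stretch toward S2 held 26.6% and 26.7% in the S2 mutant against 22.9% and 22.8% in the S4 mutant. The stretch toward S4 held 40.9% and 41.1% in the S2 mutant against 47.3% and 47.3% in the S4 mutant. The 100 kb beyond S4 held 10.5% and 10.5% in the S2 mutant against 8.04% and 8.11% in the S4 mutant. Thus by reads the promoter of the S2 mutant had more contact with the stretch toward the mutated anchor and with the flank beyond S4, and less with the stretch up to S4.

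From S2, the stretch between the promoter and S4 held 17.1% and 17.2% in the S2 mutant against 20.0% and 20.3% in the S4 mutant, and the 100 kb beyond S4 held 11.3% and 11.1% in the S2 mutant against 15.10% and 14.96% in the S4 mutant. The 100 kb centromeric of S2 held 20.9% and 20.9% in the S2 mutant against 19.0% and 18.7% in the S4 mutant. From S4, the whole stretch between S2 and S4 held 32.0% and 31.8% in the S2 mutant against 37.3% and 37.2% in the S4 mutant, while the 100 kb beyond S4 held 22.1% and 22.3% against 18.8% and 18.7%. The share between S2 and S4 read from S2 itself overlapped, at 53.3% and 53.6% in the S2 mutant against 52.9% and 53.5% in the S4 mutant.

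The balance of the 2 sides was given as the log2 ratio of telomeric to centromeric reads. It was 0.42 and 0.43 in the S2 mutant against 0.64 and 0.64 in the S4 mutant from the promoter, and 1.15 and 1.16 against 1.36 and 1.39 from S2. From S4 it was -1.40 and -1.39 in the S2 mutant against -1.67 and -1.67 in the S4 mutant. The S2 mutant was less tilted toward the telomeric side from S2 and from the promoter, and less tilted toward the centromeric side from S4. The ratio takes all near-cis reads of a side, also those beyond the span. From S2 the share inside the span overlapped between the mutants. Of the 30 window, region and balance values, 4 kept their direction under every alternative tried on all 4 libraries: the S2-to-promoter stretch and the centromeric flank of S2 read from the promoter, and the promoter window and the telomeric flank of S4 read from S4. A kept direction can be close to no difference. The telomeric flank of S4 read from S4 had a log2 ratio of 0.0035 with a 20-kb mask (12.97% in the S2 mutant against 12.94% in the S4 mutant). With non-blind ends alone it was 0.012. When each end with a read was counted once, the difference in tilt between the mutants was of opposite direction at all 3 viewpoints. The tilt of each mutant kept its side. It was 0.20 in the S2 mutant and 0.12 in the S4 mutant from the promoter. The values were 0.53 and 0.40 from S2 and -0.66 and -0.61 from S4.

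In 10-kb bins nearly the whole neighbourhood differed by reads. With edgeR's quasi-likelihood test, 89 of 96 bins (92.7%) passed an adjusted p of 0.05 from the promoter, 87 of 94 (92.6%) from S2 and 89 of 96 (92.7%) from S4. Of the called bins, 32 were higher and 57 lower in the S2 mutant from the promoter (33.3% and 59.4% of bins tested), 29 higher and 58 lower from S2 (30.9% and 61.7%), and 34 higher and 55 lower from S4 (35.4% and 57.3%). A difference of at least 2-fold was called in 60, 56 and 51 bins (62.5%, 59.6% and 53.1% of bins tested). Bin shares sum to a fixed total, so a shift in a few bins moves all others. Of the called bins, 4, 1 and 11 differed by less than 0.2 on the log2 scale, a limit that does not measure the size of such a shift.

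The split between higher and lower bins depended on the scaling. With DESeq2's size factors it was 44 higher and 43 lower from the promoter, 44 and 44 from S2, and 44 and 44 from S4. With TMM factors it was 38 and 49, 39 and 50, and 43 and 45. The median log2 ratio over all bins was -0.71, -0.85 and -0.31 with near-cis totals, against -0.042, -0.018 and 0.014 with DESeq2. Counting each end with a read once, whatever its reads, left 0 of 96, 0 of 94 and 0 of 96 bins called by edgeR, with 4, 1 and 0 at an unadjusted p under 0.05. Counts of ends per bin are small, so this test can miss differences. From the promoter, chr9:139810001-139820000 had 3 and 2 covered ends in the S2 mutant against 9 and 7 in the S4 mutant. Its log2 ratio of -1.15 was not called. With well-covered ends, edgeR called 7 (7.29%), 1 (1.06%) and 1 (1.04%).

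**Figure D3:**
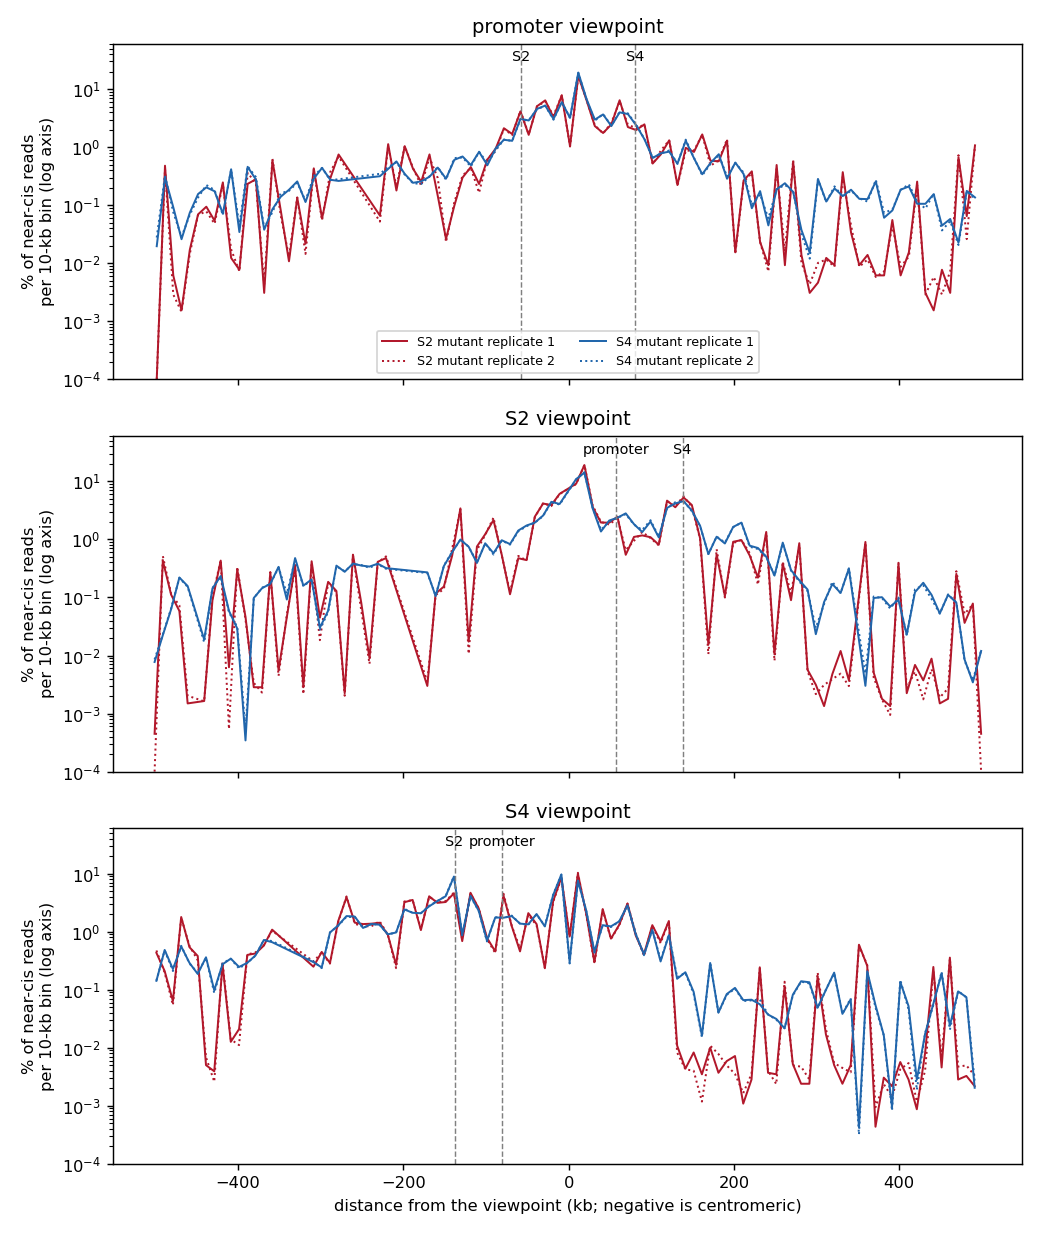
Percent of near-cis reads per 10-kb bin (log axis, values under 0.0001% drawn at 0.0001%) against distance from each viewpoint, 1 line per library: S2 mutant red, S4 mutant blue. Replicate lines nearly coincide within 250 kb, where the medians of the absolute log2 difference between replicates lie between 0.027 and 0.083. Far from the viewpoint the S2 mutant lines drop lower and vary more from bin to bin.

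The differences grew with distance from the viewpoint. Within 100 kb of the viewpoint the median absolute log2 ratio was 0.34 from the promoter, 0.59 from S2 and 0.59 from S4. From 100 to 250 kb it was 1.21, 0.84 and 0.94, and beyond 250 kb it was 2.80, 3.84 and 1.98. In the outermost telomeric region, 24 of 32 bins were called lower from the promoter, 19 of 26 from S2 and 28 of 40 from S4, with median log2 ratios of -2.73, -4.14 and -3.44. The reads of the whole region did not follow its bins: its share was higher in the S2 mutant at each viewpoint without overlap, at 5.83% and 5.80% against 5.59% and 5.62% in the S4 mutant from the promoter. It was 4.40% and 4.38% in the S2 mutant against 4.00% and 3.96% in the S4 mutant from S2, and 5.41% and 5.32% against 5.17% and 5.21% from S4. A smaller number of raised bins thus outweighed the lowered ones in reads, and the direction of the region's share turned under several alternatives. Beyond 250 kb, 9, 19 and 11 S2 mutant bins had over 90% of their reads in 1 end, against 0, 5 and 4 S4 mutant bins.

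**Figure D4:**
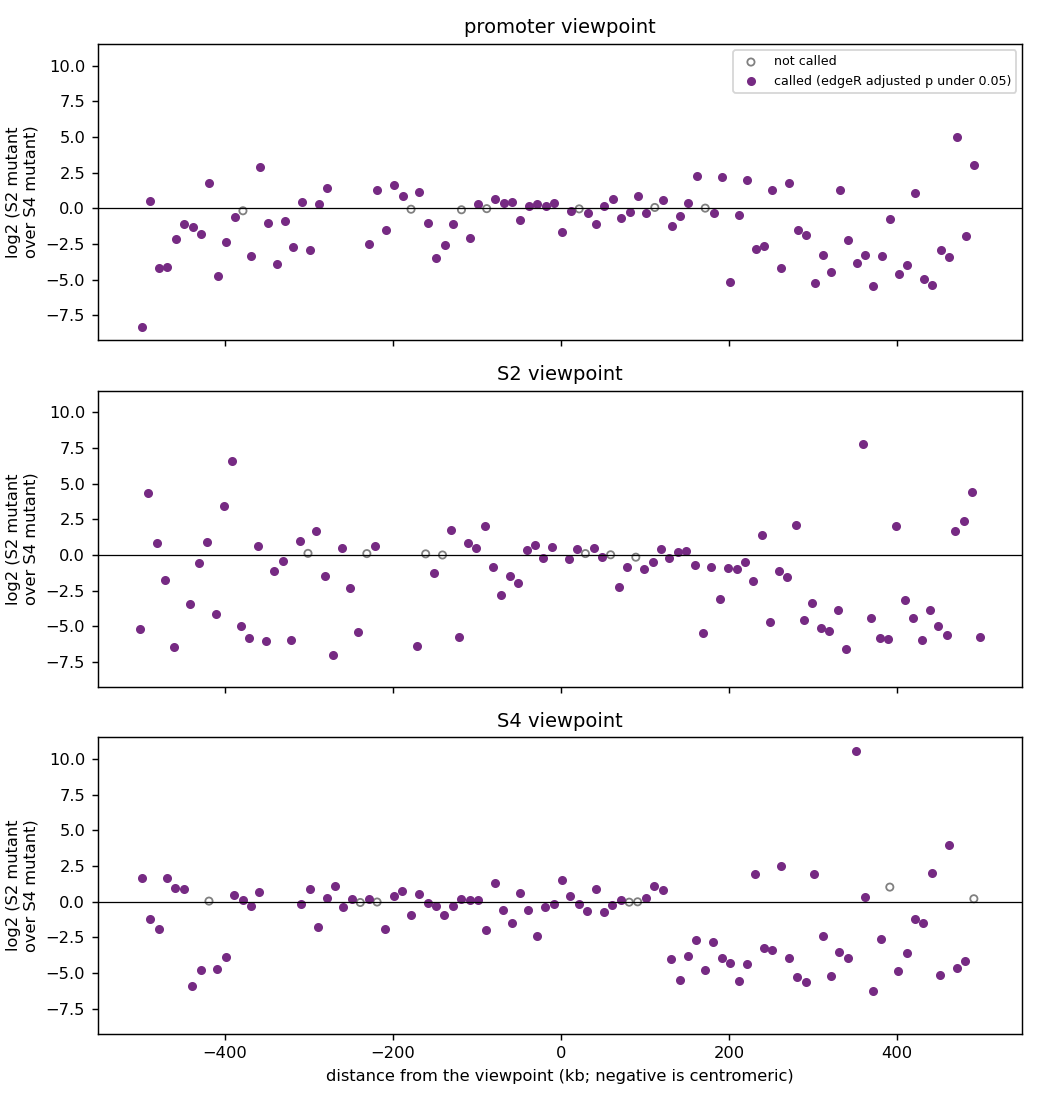
Log2 ratio of S2 mutant over S4 mutant reads per 10-kb bin against distance from the viewpoint, filled where edgeR's adjusted p is under 0.05. Points within 100 kb have median absolute values of 0.34 to 0.59 and reach 1.63 from the promoter, 2.80 from S2 and 2.39 from S4, and points beyond 250 kb spread to both sides, with median absolute values of 1.98 to 3.84.

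The bins that hold the anchors and the promoter were read one by one. The bin of S2 (chr9:139380001-139390000) read from S4 held 4.63 ± 0.09% in the S2 mutant and 8.96 ± 0.13% in the S4 mutant (SD, n = 2 each), a log2 ratio of -0.95 ± 0.03 (SE) and edgeR's adjusted p of 5.53e-80. By the mean it was the highest bin beyond 50 kb in both mutants. The promoter's bin (chr9:139440001-139450000) read from S4 held 4.32 ± 0.23% in the S2 mutant and 1.73 ± 0.01% in the S4 mutant, a log2 ratio of 1.32 ± 0.03 with edgeR's adjusted p of 2.19e-99. It ranked 3 beyond 50 kb in the S2 mutant and 15 in the S4 mutant.

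From S2, the bin of S4 (chr9:139520001-139530000) held 5.40 ± 0.18% in the S2 mutant and 4.58 ± 0.04% in the S4 mutant, a log2 ratio of 0.24 ± 0.03 with edgeR's adjusted p of 0.000522. It ranked 1 beyond 50 kb in both mutants. The promoter's bin read from S2 was not called, at 2.39 ± 0.09% in the S2 mutant and 2.36 ± 0.01% in the S4 mutant, with a log2 ratio of 0.02 ± 0.04 and edgeR's adjusted p of 0.696. From the promoter, the bin of S2 held 4.20 ± 0.09% in the S2 mutant and 3.06 ± 0.03% in the S4 mutant, a log2 ratio of 0.46 ± 0.03, and the bin of S4 held 2.05 ± 0.10% and 2.42 ± 0.03%, a log2 ratio of -0.24 ± 0.04. Both were called, with edgeR's adjusted p of 7.37e-14 and 2.33e-06, but the sign of the S4 bin turned with TMM factors (0.08) and with DESeq2 (0.43).

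By the mean of 2 libraries, the first ranks among bins far from a viewpoint were the same in both mutants. The next ranks were shared from S2 more than from S4. From S2, the 4 highest beyond 50 kb were chr9:139500001-139510000, chr9:139510001-139520000, chr9:139520001-139530000 and chr9:139530001-139540000 in each mutant, a block that runs up to and across S4. From S4, the bin of S2 ranked 1 and chr9:139400001-139410000 ranked 2 in each. The S2 mutant libraries ordered these 2 bins differently, with 4.57% and 4.69% in the bin of S2 against 4.66% and 4.48%. The bins that ranked 3, 4 and 5 from S4 in the S2 mutant (chr9:139440001-139450000, chr9:139350001-139360000 and chr9:139250001-139260000) ranked 15, 6 and 12 in the S4 mutant. Those that ranked 3, 4 and 5 in the S4 mutant ranked 7, 9 and 10 in the S2 mutant. From the promoter, chr9:139500001-139510000 ranked 1 in each, with 6.30 ± 0.20% in the S2 mutant and 4.02 ± 0.06% in the S4 mutant. By mean reads, contacts with the opposite anchor ranked first among far contacts of S2 and of S4 in both mutants. This order did not hold in replicate 1 of the S2 mutant read from S4.

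Bins with large called differences lay far out. The bins below are the 3 most raised and 3 most lowered among called bins with at least 100 reads on average. This average is of unscaled reads over the libraries of both mutants, and the S4 mutant libraries were deeper. The most lowered bins passed it through the S4 mutant reads alone, so the choice itself favours large negative ratios. A bin that passed through the S2 mutant reads needed a larger share of its library. Their share of the library's covered ends also had to change in the direction of their reads, by however little. Some bins that fail this last condition were raised more, up to a log2 ratio of 5.01 from the promoter (chr9:139910001-139920000) and 7.80 from S2 (chr9:139740001-139750000, where 1 end held 99.9% of the S2 mutant reads). From the promoter, chr9:139600001-139610000, 161.7 kb away on the telomeric side, held 1.65 ± 0.02% in the S2 mutant and 0.335 ± 0.011% in the S4 mutant, a log2 ratio of 2.30 ± 0.06 with edgeR's adjusted p of 4.05e-21. One end held 44.0% of its S2 mutant reads. The other raised bins of this choice were chr9:139240001-139250000 (log2 ratio 1.61) and chr9:139270001-139280000 (1.17). In all 3 the S2 mutant had fewer covered ends, such as 14 and 17 against 22 and 20 in the first. Only as shares of all covered ends were they higher, with log2 ratios of 0.052, 0.24 and 0.031. The most lowered bin of this choice, chr9:139810001-139820000, had 4 and 4 reads in the S2 mutant against 692 and 729 in the S4 mutant. Its fitted log2 ratio was -5.45.

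From S2, the most raised by the same choice were chr9:138990001-139000000, chr9:139870001-139880000 and chr9:138980001-138990000, with log2 ratios of 6.61, 4.43 and 3.40. In each, 1 end held over 95% of the S2 mutant reads (96.3%, 96.3% and 99.3%). The most lowered was chr9:139110001-139120000, with 15 and 15 reads in the S2 mutant against 5614 and 6468 in the S4 mutant, a log2 ratio of -7.03. From S4, chr9:139870001-139880000 had 2728 and 2436 reads in the S2 mutant against 9 and 7 in the S4 mutant, a log2 ratio of 10.6, and 99.7% of the S2 mutant reads came from 1 end. The most lowered of this choice from S4 was chr9:139890001-139900000 at -6.23.

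Some bins were called in the same direction at all viewpoints. Of 81 bins tested at all 3 viewpoints, 31 (38.3%) were called in 1 direction at each, 7 higher and 24 lower in the S2 mutant (8.64% and 29.6%). Of all bins tested, 33.3%, 30.9% and 35.4% were called higher and 59.4%, 61.7% and 57.3% lower (promoter, S2 and S4). Such rates alone give shared calls and shared signs, and whether the overlap exceeds them was not tested. Over the bins shared by a pair of viewpoints, the log2 ratios correlated at Pearson r = 0.19 for the promoter and S2 (n = 89 bins), 0.07 for the promoter and S4 (n = 88) and 0.29 for S2 and S4 (n = 81). The bins of 1 viewpoint come from the same 4 libraries and share depth, so these values describe and do not test. The sign was shared by 66.3%, 58.0% and 66.7% of bins. In a fit over all 12 libraries, the difference between the mutants depended on the viewpoint in 72 of 76 bins (94.7%) by edgeR's interaction test at an adjusted p of 0.05.

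The bin chr9:139250001-139260000 was the clearest of those higher at each viewpoint. It held 3.35 ± 0.10% in the S2 mutant and 0.990 ± 0.006% in the S4 mutant read from S2, a log2 ratio of 1.76 ± 0.04. Read from S4 it held 3.97 ± 0.09% and 1.82 ± 0.03%, a log2 ratio of 1.12 ± 0.03. Read from the promoter the log2 ratio was 0.85 ± 0.09, and 1 end held 97.4% of the S2 mutant reads there. By covered ends it was not higher from the promoter (-0.22) or from S2 (-0.035).

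The others of the 6 highest by this rule were chr9:139020001-139030000, chr9:139160001-139170000, chr9:139530001-139540000, chr9:139270001-139280000 and chr9:139400001-139410000. Of these, the bin starting at 139530001 adjoins that of S4, with log2 ratios of 0.83 from the promoter, 0.28 from S2 and 0.43 from S4. By covered ends, the bins starting at 139020001 and 139160001 were lower in the S2 mutant from the promoter (-0.65 and -0.33) and from S4 (-0.15 and -0.21). Among bins called lower at all 3 viewpoints, the first 6 by their smallest absolute log2 ratio lay between 139700001 and 139850000 on the telomeric side. Other bins were lowered more at a single viewpoint, such as chr9:139110001-139120000 from S2 (-7.03) and chr9:139890001-139900000 from S4 (-6.23). The log2 ratios of the 6 ran to -5.45 from the promoter, -5.97 from S2 and -5.65 from S4, all in chr9:139810001-139820000. There the S2 mutant held 0.0060%, 0.0027% and 0.0026% of reads and the S4 mutant 0.27%, 0.17% and 0.13%.

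Set against the other mutants of the series, the S2 mutant stood apart at every viewpoint by the median absolute log2 difference, but not by correlation. The median absolute log2 difference per bin between the S2 and S4 mutants was 1.36 from the promoter, 1.73 from S2 and 1.18 from S4, against 0.03 to 0.14 between replicates of any mutant. Pairs of the S2 mutant with the S5 or S4-S5 mutant gave 1.24 to 1.80, and pairs without the S2 mutant gave 0.49 to 0.88. By Pearson r of log2 bin shares, pairs with the S2 mutant lay below all pairs without it from the promoter only (at most 0.783 against at least 0.788). The S2 and S4 mutants correlated at 0.647 from S2 and 0.753 from S4, against 0.638 and 0.724 for the S4 and S5 mutants. The S2 mutant libraries also had the fewest near-cis reads of the mutants at each viewpoint, and the part of depth was not tested. The pairs share libraries, so they are given side by side and were not tested. End by end, log2 reads of replicates correlated at r = 0.963 to 0.995 and those of the 2 mutants at r = 0.563 to 0.693.

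Beyond the near-cis window, the share of reads outside the mask that lay within 500 kb was 83.9% and 84.0% in the S2 mutant against 82.9% and 83.1% in the S4 mutant from the promoter. From S2 it was 81.6% and 82.1% in the S2 mutant against 87.5% and 87.6% in the S4 mutant, and from S4 it was 88.1% and 88.2% against 88.7% and 88.7%. Between 0.5 and 1 Mb from S2, the S2 mutant held 8.06% and 7.98% of these reads and the S4 mutant 4.71% and 4.68%.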

How the data were processed

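Per the labels' protocols, K562 chromatin was digested with DpnII, ligated and cut again with NlaIII or CviQI, and libraries were sequenced as single-end reads of 150 bp. The deposited tables give, per the file headers, counts of reads for each fragment end of chromosome 9, with blind ends marked; hg19 and deepTools are named in the submitters' processing notes without a role, and the sources used here do not give the aligner or filters. Reads carry no molecular identifiers, so PCR copies cannot be told from separate ligations. The authors' scaled columns were not used.

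From these counts, ends within 5 kb of the viewpoint were left out, near-cis reads within 500 kb were summed in 10-kb bins, and bins with a mean of at least 10 reads were tested with edgeR 4.0.16 (quasi-likelihood, near-cis totals as library sizes, Benjamini-Hochberg adjustment over all bins of a viewpoint), with DESeq2 1.42.0 as an alternative. The fit was tested on simulated data, where it recovered the set changes as long as these left the library total unchanged. When they moved the total, unchanged bins were called too, since their shares then shift. The simulation changed a minority of bins by 2-fold, in equal numbers up and down. In the data 62.5%, 59.6% and 53.1% of bins were called at 2-fold or more (promoter, S2 and S4), most of them lower. The simulation therefore does not show how the fit behaves in such data. SE is the log2 ratio over the square root of the F statistic. Shares were compared by an exact permutation test. Bins were named where they hold a viewpoint. The 3 most raised or lowered called bins were also named (at least 100 reads on average, groups separate, share of covered ends of the same direction). So were bins called in 1 direction at all 3 viewpoints (6 per direction, by the smallest absolute ratio). Libraries sharing a number did not deviate together (r = 0.014, -0.0027 and 0.057 at the promoter, S2 and S4). The comparison and these rules were chosen with earlier results of these data known.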

Additional observations from a re-analysis of the deposited data

Results flagged for a closer look

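The same contrast ran in opposite directions at different viewpoints for several contacts, in every library; these differences between viewpoints were not tested one by one. The contact of the promoter with S2 had a log2 ratio (S2 mutant over S4 mutant) of 0.060 read from the promoter and -0.39 read from S2. The contact of the promoter with S4 had -0.32 read from the promoter and 0.65 read from S4. These are reads in windows of 10 kb either side. When each end with a read was counted once, both contacts were higher in the S2 mutant in both readings.

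The 100 kb centromeric of S2 had log2 ratios of -0.16 from the promoter, 0.15 from S2 and -0.045 from S4. The stretch from S2 to the promoter had 0.22 from the promoter, 0.14 from S2 and -0.35 from S4. The 100 kb telomeric of S4 had 0.38 from the promoter, -0.42 from S2 and 0.25 from S4. Shares of different viewpoints have different denominators and different sets of ends. With each end with a read counted once, the S2-to-promoter stretch and the telomeric flank were higher in the S2 mutant at every viewpoint. The centromeric flank still differed in direction.

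In the fit over all 12 libraries, 72 of 76 bins had a difference between the mutants that depended on the viewpoint. In the S2 mutant, 90% of near-cis reads lay in fewer ends at all 3 viewpoints, and the part of that in these calls was not tested.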

How the results depend on the processing

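The largest dependence was on counting reads or ends, and the cause was not tested. Counts of ends per bin are small, so fewer calls with ends do not show that the bins were alike. Called bins numbered 0, 0 and 0 (promoter, S2 and S4 viewpoints) with covered ends and 7, 1 and 1 with well-covered ends, a measure chosen after seeing the data. They numbered 162, 164 and 165 with 5-kb bins, 43, 50 and 44 with 20-kb bins, 43, 40 and 46 in a 250-kb window and 174, 176 and 159 in a 1-Mb window, where fewer or more bins were tested. Leaving out 1 library gave 84 to 89, 86 to 91 and 83 to 90. Libraries share only a number, and with a replicate block 89, 89 and 87 bins were called, with 72 in the interaction fit. Of 30 shares and ratios, 26 turned sign under at least 1 alternative, 21 with covered ends and 21 with well-covered ends. In the most lowered named bins the S2 mutant libraries held 1 to 29 reads, and no fit at equal depth was run.

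With covered ends, log2 ratios from the promoter turned to 0.20 (window at S4), -0.26 (far centromeric), 0.39 (promoter to S4), -0.34 (far telomeric), 0.38 (between S2 and S4) and 0.083 (telomeric over centromeric). From S2 they turned to 0.17 (window at promoter), 0.12 (window at S4), -0.17 (far centromeric), 0.092 (promoter to S4), 0.10 (telomeric flank), -0.016 (far telomeric) and 0.13 (telomeric over centromeric). From S4 they turned to 0.14 (window at S2), -0.042 (far centromeric), 0.0044 (centromeric flank), 0.057 (S2 to promoter), 0.12 (promoter to S4), -0.12 (far telomeric), 0.093 (between S2 and S4) and -0.045 (telomeric over centromeric).

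With well-covered ends, those from the promoter turned to 0.15 (window at S4), -0.91 (far centromeric), 0.76 (promoter to S4), -0.15 (telomeric flank), -1.42 (far telomeric), 0.75 (between S2 and S4) and 0.24 (telomeric over centromeric). From S2 they turned to 0.30 (window at promoter), 0.89 (window at S4), -0.43 (far centromeric), 0.33 (promoter to S4), -0.87 (far telomeric) and 0.29 (telomeric over centromeric). From S4 they turned to 0.69 (window at S2), -0.27 (far centromeric), 0.016 (centromeric flank), 0.71 (S2 to promoter), 0.081 (promoter to S4), -1.05 (far telomeric), 0.39 (between S2 and S4) and -0.28 (telomeric over centromeric).

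With capped ends the promoter's values turned to -0.12 (window at S2), -0.056 (far telomeric) and 0.0079 (telomeric over centromeric), those of S2 to 0.48 (window at S4) and -0.024 (centromeric flank), and those of S4 to 0.16 (window at S2), 0.056 (S2 to promoter) and -0.20 (far telomeric). A 20-kb mask turned the promoter's to -0.011 (window at S2) and -0.019 (far telomeric) and those of S2 to 0.067 (window at S4) and -0.0033 (between S2 and S4). A 250-kb window turned -0.084 (far telomeric, promoter), -0.0035 (between S2 and S4, S2), -0.19 (far centromeric, S4) and 0.0010 (centromeric flank, S4). Non-blind ends alone turned -0.020 (far telomeric, promoter), -0.032 (S2 to promoter, S2), -0.088 (between S2 and S4, S2), 0.35 (centromeric flank, S4) and -0.0021 (far telomeric, S4).

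Contact windows of 20 kb either side turned the window at S4 to 0.24 from the promoter and 0.27 from S2, and windows of 5 kb turned those of S2 to 0.043 (promoter) and 0.25 (S4). The share between S2 and S4 read from S2 turned to -0.091 over all chromosome 9 reads outside the mask and -0.053 in a 1-Mb window. With 1 library left out it ran from -0.0018 to 0.014, and the window at S4 read from S2 ran from -0.045 to 0.016.

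Among named bins, given by start, the bin 139520001 read from the promoter turned to 0.078 (TMM), 0.43 (DESeq2), 0.14 (covered ends) and 0.11 (well-covered ends). From S2, bin 139440001 turned to -0.079 (chromosome 9 scaling) and -0.042 (1-Mb window) and ran from -0.023 to 0.058 with 1 library left out. With non-blind ends, -0.090 (139520001, S2), -4.11 (139020001, S2), -5.22 (139820001, S4) and -0.070 (139530001, promoter) turned. Covered ends turned bins from the promoter to -0.22 (139250001), -0.65 (139020001) and -0.33 (139160001), from S2 to -0.035 (139250001), -0.11 (139020001), 0.35 (139800001) and 0.10 (139700001), and from S4 to -0.015 (139440001), 0.21 (139380001), -0.15 (139020001) and -0.21 (139160001). Well-covered ends turned those from the promoter to -0.97 (139250001), -0.27 (139020001) and -0.019 (139160001), from S2 to -0.073 (139020001), -0.64 (139160001), -0.076 (139530001) and -0.85 (139270001), and from S4 to 0.75 (139380001), -0.090 (139020001) and -0.67 (139160001). Capped ends turned -0.14 (139530001, S2) and -0.025 (139400001, promoter), and a 250-kb window -0.30 (139270001, S4).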
